A study of Mus musculus with 41 samples.

Results

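The genes described here are 44 mouse genes of the hypoxia response and of glycolysis: the HIF transcription factors, the enzymes that sense oxygen for them, targets of HIF, transporters of glucose and lactate, and the enzymes that turn glucose into pyruvate and lactate. They were chosen by name and matched by symbol in each of 3 tables of 55453 genes, and all 44 were found and carried an adjusted p-value in all 3. Tumours of MC38-luc, a mouse colon carcinoma line with a luciferase transgene, were implanted orthotopically in the rectum of female C57BL6 mice. Irradiated tumours were given 5 Gy on each of 5 days, from day 9 to day 13 after implantation, untreated tumours were not irradiated, and tumours of both kinds were taken on day 14. The age of the mice is not given in the sources used here. From the CD45+ CD11b+ cells of a tumour, the sort took tumour-associated macrophages (TAM) in the gate Ly6C- Ly6G- F480+, inflammatory monocytes in Ly6C+ Ly6G- and granulocytes in Ly6C+ Ly6G+. There were 5 untreated and 10 irradiated TAM libraries, 5 and 9 monocyte libraries, and 5 and 7 granulocyte libraries, from 15 numbered tumours, of which no tumour was both untreated and irradiated.

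HIF is a pair of proteins, an oxygen-regulated alpha subunit such as HIF-1α (gene Hif1a) and the stable partner ARNT (gene Arnt). With oxygen present, prolyl hydroxylases (genes Egln1, Egln2 and Egln3) mark the alpha subunit, and VHL binds the mark and has the protein destroyed. With little oxygen the alpha subunit lasts, enters the nucleus and switches on genes for glucose uptake, glycolysis, lactate export, vessel growth and mitophagy, and in myeloid cells inflammatory signals also raise Hif1a transcription and glycolysis.

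The core of the DNA site that HIF binds is A or G followed by CGTG, and the stretches below show such cores upstream of annotated starts of 7 members that were higher in TAM of irradiated tumours and lower in a second subset of them, a pattern described below with the settings under which it is lost. Kdm3a, the other such member, had no match upstream of a RefSeq start that was clear of the gene's transcripts, flanks included. Sequences are RefSeq's for build GRCm38.p6, an earlier build than the mm39 of the deposited tables, and are written 5′ to 3′ along the gene. Capitals mark ACGTG or GCGTG, or CACGT or CACGC where the core lies on the other strand, and the marked cores first met lie 14 to 229 bases upstream of the start.
Egln3 (chr12:54204069-54204124, minus strand): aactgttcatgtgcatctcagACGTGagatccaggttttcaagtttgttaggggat
Mxi1 (chr19:53329317-53329381, plus strand): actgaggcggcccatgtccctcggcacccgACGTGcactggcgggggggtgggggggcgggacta
Slc2a1 (chr4:119108654-119108718, plus strand): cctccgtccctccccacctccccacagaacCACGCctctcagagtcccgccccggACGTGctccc
Slc16a3 (chr11:120949023-120949066, plus strand): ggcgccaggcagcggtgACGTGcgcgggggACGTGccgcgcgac
Hk1 (chr10:62340583-62340647, minus strand, at a start inside the gene): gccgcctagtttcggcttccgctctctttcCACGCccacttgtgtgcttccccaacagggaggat
Hk2 (chr6:82774472-82774536, minus strand): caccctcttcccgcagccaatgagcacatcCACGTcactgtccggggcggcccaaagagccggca
Pfkl (chr10:78009872-78009936, minus strand): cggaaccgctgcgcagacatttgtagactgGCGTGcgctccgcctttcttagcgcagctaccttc

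RefSeq windows of 300 bases, from 250 before to 50 after a start, were found for 40 of the 44 members, and not for Epas1, Bnip3l, Ndrg1 and Slc2a3. ACGTG, on either strand, occurred in a window of 27 of these 40 members (67.5%). The share was 21.8% over all 27025 genes with a window, 28.4% over the genes tested in TAM and 32.7% over those with a mean normalised count of at least 1000. GCGTG also occurred in 27 of 40 members, beside 35.2%, 52.7% and 56.5% of the same sets, and 36 of 40 members (90.0%) held at least one of both, beside 46.7%, 64.4% and 69.2%. Genes with several windows have more chances of a match, an ACGTG preceded by C is also the E-box core that other factors bind, and a match is a description of the letters and not of binding. Many of the members are known targets of HIF and were chosen as such.

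The deposited tables give, for each gene, the normalised count averaged over libraries, a log2 fold change of irradiated against untreated tumours, read here as shrunken towards 0, the Wald statistic (the effect divided by its standard error), and p-values before and after adjustment. As single libraries were not analysed here, levels per tumour, their spread and the read depth are unknown. The mean count is the same in the 3 tables and does not describe 1 subset, so levels of the members or of markers in a subset could not be compared. A gene was called higher or lower where the adjusted p of the authors' DESeq2 Wald test was under 0.05, with the direction from the sign of the Wald statistic.

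With abundance and other settings not yet considered, the members' calls divided the 3 subsets by direction. Limits to this are given below. In TAM, 17 of the 44 members were higher in irradiated tumours and 0 lower, where 13.9% of all tested genes were higher and 12.5% lower. In inflammatory monocytes 8 were lower and 0 higher, where 1.77% of all tested genes were lower and 4.13% higher. In granulocytes 10 were lower and 0 higher, where 9.9% of all tested genes were lower and 7.32% higher. The Wald statistic was positive for 37 of 44 members in TAM, and for 7 of 44 in monocytes and 7 of 44 in granulocytes. The median Wald statistic of the members in the authors' deposited tables was 1.98 in TAM, -1.31 in monocytes and -1.61 in granulocytes, beside 0.14, 0.11 and -0.14 over all genes tested.

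**Figure D1:**
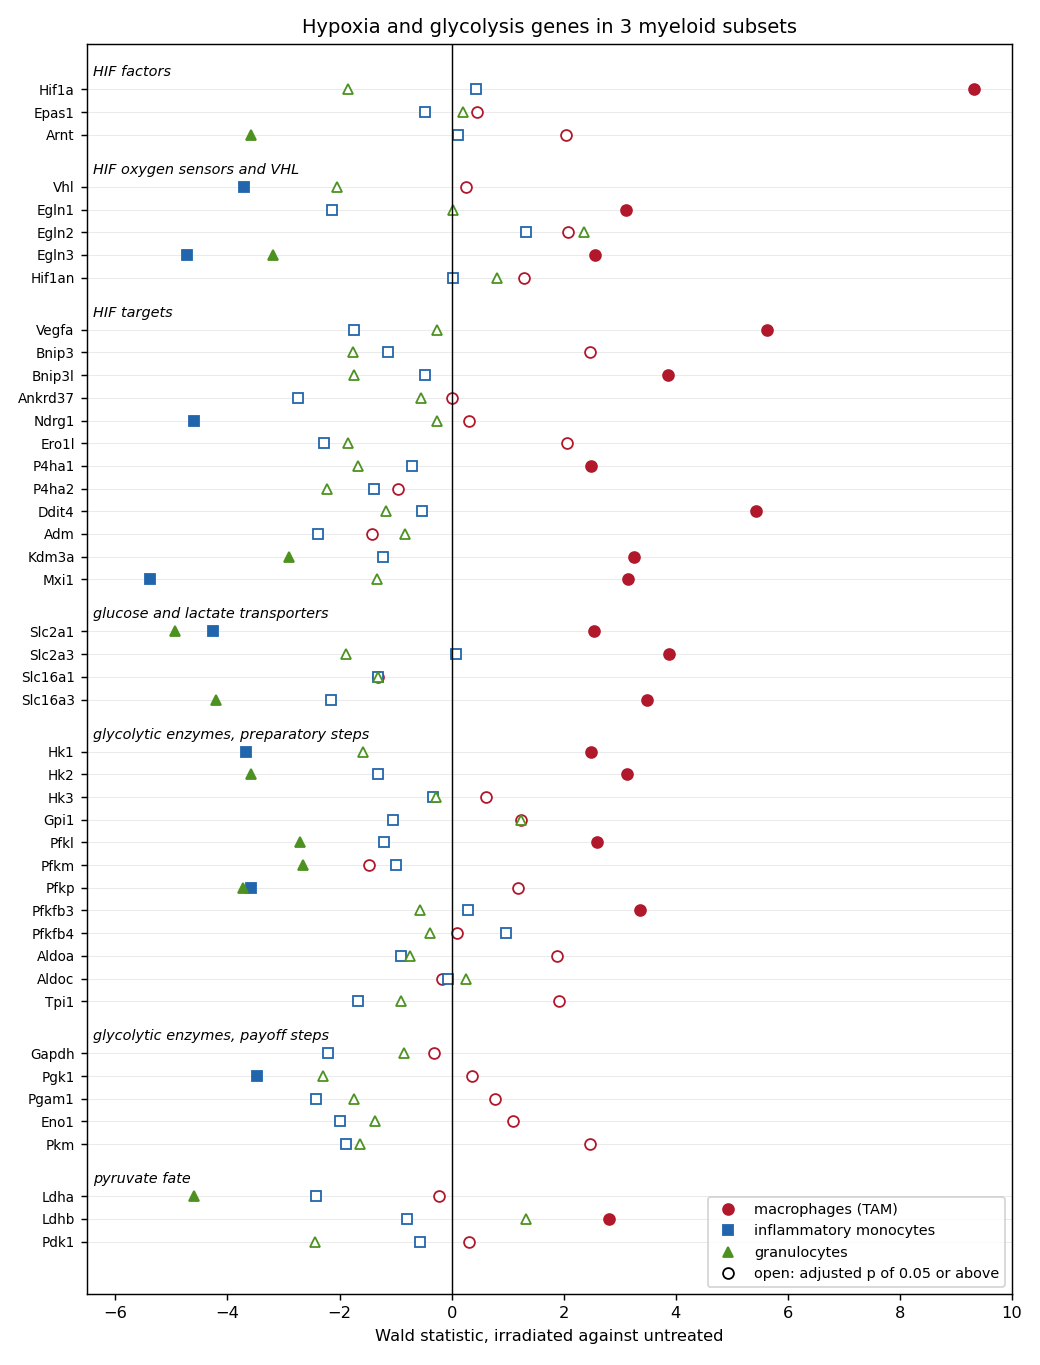
Each row is a member, grouped by role, and each point is its Wald statistic for irradiated against untreated tumours in the authors' deposited tables (x axis, no unit). Circles are macrophages, squares inflammatory monocytes and triangles granulocytes, filled where the adjusted p is under 0.05; all 17 filled circles lie right of 0, and all 8 filled squares and 10 filled triangles left of it.

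Most members are abundant, and more abundant genes were higher than lower in TAM. The mean normalised count was at least 1000 for 34 members. Among all genes at or above that count, 31.2% were higher and 14.3% lower in TAM, and their median log2 fold change in the authors' deposited table was 0.17. Of the 34 abundant members 15 were higher. With the median Wald statistic of abundant genes, 1.17, taken as the zero point, 5 members remained higher in TAM (Hif1a, Vegfa, Bnip3l, Ddit4 and Slc2a3) and 3 were lower (Adm, Slc16a1 and Pfkm). In the other subsets the median of abundant genes lay near 0. Abundant genes had a median Wald statistic of 0.01 in monocytes, where 2.93% were lower and 6.06% higher, and of -0.04 in granulocytes, where 13.5% were lower and 12.8% higher, in the authors' deposited tables. Of the 34 abundant members 8 were lower in monocytes and 9 in granulocytes. With the same re-centring 8 of the 8 monocyte calls and 9 of the 10 granulocyte calls remained.

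**Figure D2:**
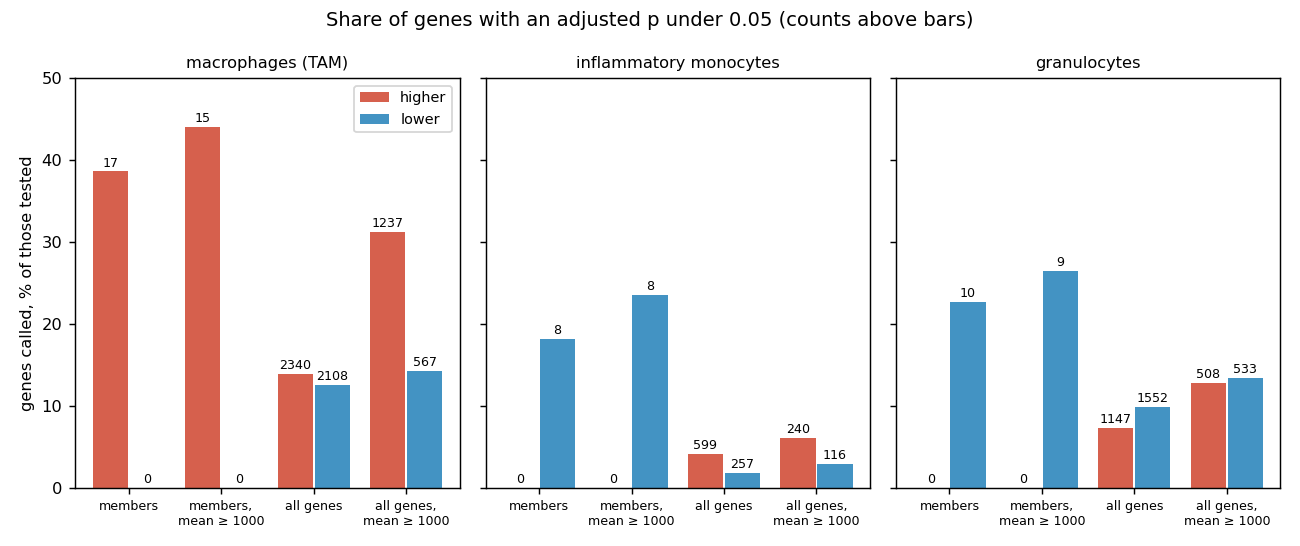
Bars give the percentage of tested genes called higher (red) or lower (blue) in each subset, with the number of genes above each bar, for the 44 members, the 34 members with a mean count of at least 1000, all genes, and all genes at that count. The members' blue bars in monocytes (8 genes) and granulocytes (10 genes) stand above the blue bars of both gene backgrounds, and the red bar of abundant genes in macrophages is 31.2%.

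**Figure D3:**
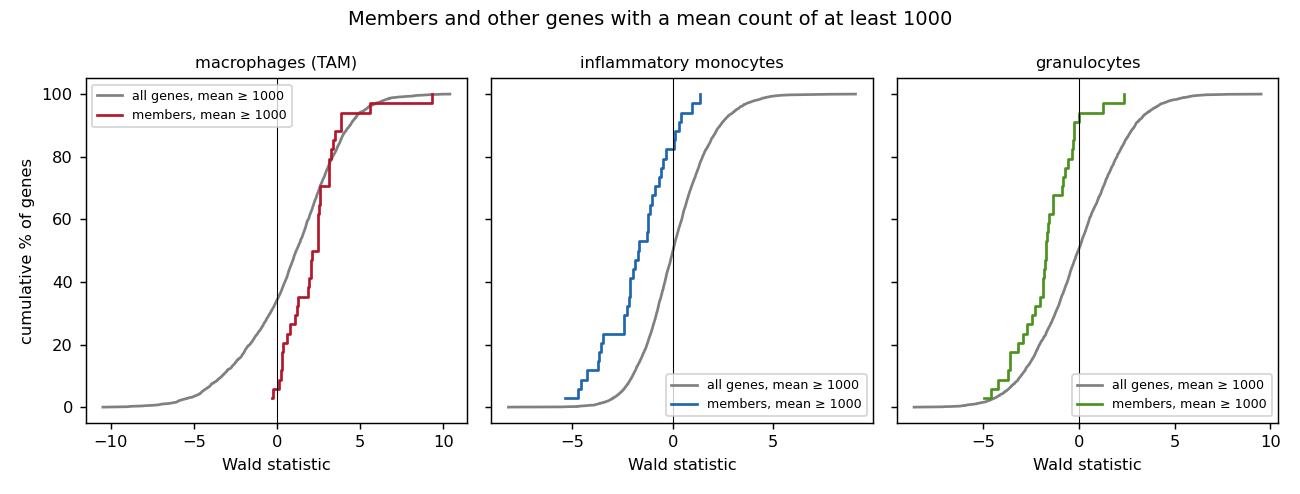
Curves give the cumulative percentage of genes (y axis) up to each Wald statistic (x axis) among genes whose mean count reaches 1000, in grey for all 3962 such genes and in colour for the 34 members. The members' curve lies right of the grey one over most of its length in macrophages, where the grey median is 1.17, and left of it in monocytes and granulocytes.

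Of the 44 members, 24 were called in at least 1 subset and 20 in none. Egln3 and Slc2a1 were higher in TAM and lower in both other subsets. Mxi1 and Hk1 were higher in TAM and lower in monocytes, and Kdm3a, Slc16a3, Hk2 and Pfkl higher in TAM and lower in granulocytes. Another 9, which were Hif1a, Egln1, Vegfa, Bnip3l, P4ha1, Ddit4, Slc2a3, Pfkfb3 and Ldhb, were called in TAM alone. Of the remaining 7, Pfkp was lower in monocytes and granulocytes, Vhl, Ndrg1 and Pgk1 in monocytes, and Arnt, Pfkm and Ldha in granulocytes. None of the 8 members that were higher in TAM and lower in another subset kept its TAM call when Wald statistics were centred on abundant genes, so the pattern of opposite calls was lost under that setting, and the planned test of opposite effects given below called 0 members. Several calls were close to the threshold. With adjustment over every gene that has a p-value, Egln3, P4ha1, Slc2a1, Hk1 and Pfkl were no longer called in TAM, nor Kdm3a, Pfkl and Pfkm in granulocytes. The 3 comparisons share tumours, since a tumour gave up to 3 libraries, so these counts are not independent of each other.

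Among the HIF factors, Hif1a, which encodes the oxygen-regulated subunit of HIF-1, had the largest Wald statistic of all members. Its log2 fold change in TAM was 1.36 in the authors' deposited table, a 2.57-fold rise (Wald statistic 9.32, DESeq2 adjusted p = 1.2e-17). In monocytes the authors' deposited table gives Hif1a 0.07 (adjusted p = 0.87), and in granulocytes -0.29 (adjusted p = 0.20). Arnt, the partner subunit, had 0.34 in TAM (adjusted p = 0.12) and 0.02 in monocytes (0.97), and was lower in granulocytes at -0.64 (DESeq2 adjusted p = 0.0048), in the authors' deposited tables. Epas1, which encodes HIF-2α, had a mean normalised count of only 20.6 and passed in none, with log2 fold changes from -0.30 to 0.31 in the authors' deposited tables. An annotated antisense gene, Gm15283, shares 330 exonic bases with Hif1a, and since the library kit keeps no strand their reads cannot be told apart, although the antisense gene's mean normalised count is 82.2 beside 16264 for Hif1a.

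Of the 5 oxygen sensing genes, 2 were higher in TAM, 2 lower in monocytes and 1 lower in granulocytes. The matching shares were 13.9%, 1.77% and 9.9% of all genes, and 31.2%, 2.93% and 13.5% of abundant ones. Neither TAM call remained with Wald statistics centred on abundant genes. Egln3 encodes the hydroxylase PHD3, itself a target of HIF. Its log2 fold change was 0.59 in TAM (adjusted p = 0.041), -1.15 in monocytes (0.00032) and -0.79 in granulocytes (0.014) by the DESeq2 test in the authors' deposited tables. Egln1 encodes PHD2, the main hydroxylase that acts on HIF-1α. It was higher in TAM at 0.54 (DESeq2 adjusted p = 0.010), with -0.37 in monocytes (0.20) and 0.00 in granulocytes (0.99) in the authors' deposited tables. Vhl, the subunit that recognises hydroxylated HIF, was lower in monocytes at -0.54 (DESeq2 adjusted p = 0.0088), with 0.03 in TAM and -0.31 in granulocytes in the authors' deposited tables. Egln2, which encodes PHD1, and Hif1an, which encodes the asparagine hydroxylase FIH, were called in none, and their log2 fold changes lay between 0.00 and 0.46 in the authors' deposited tables.

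Of 12 HIF targets, 6 were higher in TAM (beside 13.9% of all genes and 31.2% of abundant ones), 2 lower in monocytes (1.77% and 2.93%) and 1 lower in granulocytes (9.9% and 13.5%, so the granulocyte count is no more than these shares). Vegfa, the vascular growth factor, rose in TAM by a log2 fold change of 1.50 (2.82-fold, DESeq2 adjusted p = 6.5e-07), and the authors' deposited tables give it -0.46 in monocytes (0.33) and -0.08 in granulocytes (0.90). Ddit4 encodes REDD1, an inhibitor of mTORC1 signalling that DNA damage and glucocorticoids also induce. It rose in TAM by 1.82 (3.54-fold, DESeq2 adjusted p = 1.6e-06), beside -0.18 in monocytes and -0.41 in granulocytes, in the authors' deposited tables. These were the largest rises among the HIF targets, and each gene had a log2 fold change of 0 or below in both other subsets.

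Bnip3l, a mitophagy receptor, rose in TAM by 0.57 (DESeq2 adjusted p = 0.0011), Kdm3a, a histone demethylase, by 0.69 (0.0070) and P4ha1, a collagen prolyl hydroxylase, by 0.47 (0.048) in the authors' deposited table. Kdm3a was lower in granulocytes at -0.66 (DESeq2 adjusted p = 0.027) in the authors' deposited table. Mxi1, which encodes an antagonist of Myc, had 0.55 in TAM (0.0096), -0.97 in monocytes (2.0e-05, the smallest adjusted p of any member there) and -0.25 in granulocytes (0.39), by the DESeq2 test in the authors' deposited tables. Ndrg1, a stress-response gene, had its only call in monocytes, where it was lower at -0.99 (DESeq2 adjusted p = 0.00049) in the authors' deposited table. Bnip3, a second mitophagy receptor, just missed the threshold in TAM with 0.50 (adjusted p = 0.050), and Ero1l, an oxidase of protein folding, had 0.52 (0.12), in the authors' deposited table. Of the possible 50-base stretches of the longest Bnip3 transcript, 62.4% also occur in other genes. Its values are therefore uncertain where the counting split or dropped such reads. The other targets without a call were Ankrd37, P4ha2 and Adm, which encodes the vasodilator adrenomedullin. In monocytes and granulocytes all 12 targets had a negative Wald statistic, and in TAM 10 of 12 had a positive one, in the authors' deposited tables.

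Of 4 transporters of glucose and lactate, 3 were higher in TAM, 1 lower in monocytes and 2 lower in granulocytes. The matching shares were 13.9%, 1.77% and 9.9% of all genes, and 31.2%, 2.93% and 13.5% of abundant ones. Of the 3 TAM calls, only that of Slc2a3 remained with Wald statistics centred on abundant genes. Slc2a1 encodes GLUT1, the widespread glucose transporter. It was higher in TAM by 0.44 (adjusted p = 0.043) and lower in monocytes by -0.76 (0.0017) and in granulocytes by -0.92 (4.8e-05), by the DESeq2 test in the authors' deposited tables. Slc2a3 encodes GLUT3, a high-affinity glucose transporter. It had the largest log2 fold change of the members in TAM, 1.85 (3.61-fold, DESeq2 adjusted p = 0.0010), and in granulocytes it had -1.05 without passing (0.19), in the authors' deposited tables. In monocytes the Wald statistic of Slc2a3 was 0.08 beside a fold of -0.09 in the authors' deposited table, so it has no direction there. Slc16a3 encodes MCT4, which exports lactate. It was higher in TAM by 0.55 (0.0036) and lower in granulocytes by -0.72 (0.00073), with -0.35 in monocytes (0.20), by the DESeq2 test in the authors' deposited tables. Slc16a1, which encodes the lactate transporter MCT1, had -0.40, -0.39 and -0.43 in TAM, monocytes and granulocytes in the authors' deposited tables and passed in none.

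The first steps of glycolysis spend ATP to trap and split glucose, and 4 of the 12 genes of these steps were higher in TAM, a share near the 31.2% of abundant genes. Pfkfb3 makes the activator of phosphofructokinase, and rose by 1.29 (2.45-fold, DESeq2 adjusted p = 0.0053) in the authors' deposited table. The hexokinase genes Hk1 and Hk2 rose by 0.36 (0.049) and 0.59 (0.010), and Pfkl, the liver-type phosphofructokinase, by 0.43 (0.038), by the DESeq2 test in the authors' deposited table. In monocytes Hk1 was lower by -0.55 (DESeq2 adjusted p = 0.0095) and Pfkp, the platelet-type phosphofructokinase, by -0.63 (0.012) in the authors' deposited table. In granulocytes 4 of the 12 were lower, beside 9.9% of all genes and 13.5% of abundant ones. These were Hk2 by -0.73 (0.0049), Pfkl by -0.48 (0.043), Pfkp by -0.68 (0.0033) and Pfkm, the muscle type, by -1.08 (0.048), by the DESeq2 test in the authors' deposited table. So the 3 phosphofructokinase genes, whose enzyme commits glucose to glycolysis, all passed as lower in granulocytes, and 1 of 3 as higher in TAM. Pfkl and Pfkm were close to the threshold in granulocytes, and Pfkm had a mean normalised count of only 92.2. Both lost that call with adjustment over every gene that has a p-value, and with Wald statistics centred on their median. The TAM call of Pfkl was lost under both settings too. A stretch of 748 exonic bases of Pfkp is shared with Pitrm1 on the opposite strand, so part of its reads may belong to that gene.

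The later steps of glycolysis return ATP. None of the 5 genes Gapdh, Pgk1, Pgam1, Eno1 and Pkm was called in TAM or in granulocytes. Pgk1, phosphoglycerate kinase, was lower in monocytes at -0.32 (DESeq2 adjusted p = 0.017) in the authors' deposited table. In TAM their log2 fold changes ranged from -0.04 to 0.29, the last of them Pkm, pyruvate kinase, which just missed the threshold (adjusted p = 0.051), in the authors' deposited table. All 5 had a negative Wald statistic in monocytes and in granulocytes, with log2 fold changes of -0.32 to -0.23 and -0.23 to -0.12 in the authors' deposited tables. These genes have many processed pseudogenes. Of the possible 50-base stretches of the longest transcript, 82.5% for Gapdh, 72.2% for Eno1 and 68.0% for Pgk1 also occur in other genes. For Pgam1 the share is 41.5% and for Pkm 34.4%. The values of these genes are uncertain where the counting split or dropped such reads.

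Pyruvate can be turned to lactate or burnt in mitochondria. Ldha, the lactate dehydrogenase subunit that favours lactate, was lower in granulocytes at -0.69 (DESeq2 adjusted p = 0.00018), with -0.03 in TAM (0.91) and -0.35 in monocytes (0.14), in the authors' deposited tables. Ldhb, the other subunit, was higher in TAM at 0.82 (DESeq2 adjusted p = 0.024), with -0.23 in monocytes and 0.41 in granulocytes, in the authors' deposited tables. Pdk1, the kinase that shuts pyruvate out of mitochondria, was called in none, and its lowest value was -0.33 in granulocytes (adjusted p = 0.073) in the authors' deposited table. Ldha and Ldhb, the subunits of 1 enzyme, were thus called in different subsets and in different directions.

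Of the 20 members called in none, the 5 with the highest mean normalised counts were Pkm, Eno1, Aldoa, Gapdh and Tpi1, all enzymes of glycolysis. Aldoa, aldolase, and Tpi1, triosephosphate isomerase, had 0.27 and 0.24 in TAM (adjusted p = 0.16 and 0.14), -0.14 and -0.22 in monocytes, and -0.11 and -0.12 in granulocytes in the authors' deposited tables. The remaining glycolysis genes without a call were Hk3, Gpi1, Pfkfb4, Aldoc and Pgam1, with log2 fold changes between -0.26 and 0.24 in the authors' deposited tables.

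Whether the effect itself differed between subsets was first tested as planned, by requiring opposite signs and adjusting the larger of both p-values over all genes tested in both subsets. No member passed in any pair, where 0 genes of 14506 passed for TAM and monocytes (0.0%), 15 of 15679 for TAM and granulocytes (0.0957%) and 0 of 14506 for monocytes and granulocytes (0.0%). The smallest adjusted p of a member was 0.15. Without adjustment, 7 members had opposite effects at p under 0.05 in TAM and monocytes (Egln1, Egln3, Ero1l, Mxi1, Slc2a1, Slc16a3 and Hk1), beside 0.91% of genes. Another set of 7 did in TAM and granulocytes (Arnt, Egln3, Kdm3a, Slc2a1, Slc16a3, Hk2 and Pfkl), beside 3.12% of genes, and 0 in monocytes and granulocytes.

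That planned test asks for an effect in each subset and misses a gene that moves in 1 alone. After it had called no member, an approximate test of the difference of the 2 log2 fold changes was added, with the ratio of fold to Wald statistic as standard error and Benjamini-Hochberg adjustment over all genes it could be computed for. By it, the effect was higher in TAM than in monocytes for 17 of 40 members and lower for 0, where 5.55% of genes were higher and 4.88% lower. It was higher in TAM than in granulocytes for 21 of 41 members and lower for 0, where 11.4% were higher and 6.03% lower. Among abundant genes the shares higher in TAM were 11.2% and 21.2%. Between monocytes and granulocytes 0 of 40 members differed (1.63% of all genes did). The test is approximate in that shrinkage cancels only where it is alike in both subsets, and it takes subsets from shared tumours (14 numbers shared by TAM and monocytes, 12 by TAM and granulocytes) as independent. It also assumes that fold and Wald statistic come from the same estimate, which was not checked. Divided by their own robust SD over all genes, the statistics left 0 members different between TAM and monocytes and 1 between TAM and granulocytes.

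**Figure D4:**
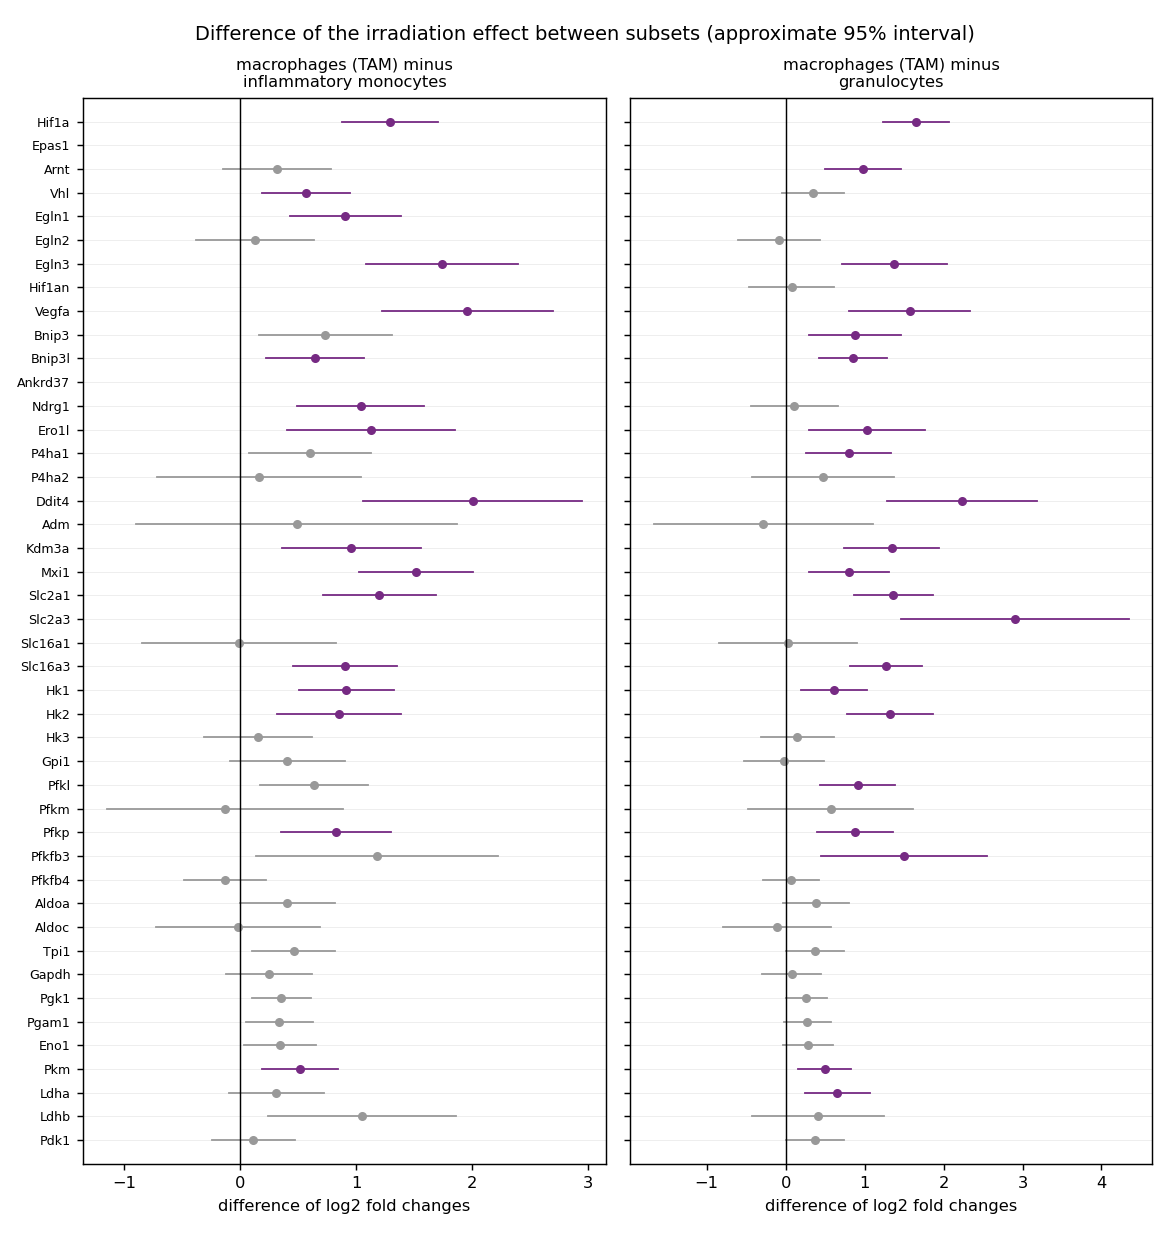
Points are the difference of log2 fold changes (irradiated against untreated) between macrophages and monocytes (left) or granulocytes (right) for each member, with approximate 95% intervals as lines; members without a point could not be computed. Purple marks an adjusted p under 0.05, which holds for 17 members on the left and 21 on the right, all of them at positive differences.

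Hif1a differed by 1.29 ± 0.21 (approximate SE) between TAM and monocytes and by 1.65 ± 0.21 between TAM and granulocytes (approximate z test, adjusted p = 2.0e-06 and 1.3e-11). Mxi1, the Myc antagonist, differed by 1.52 ± 0.25 between TAM and monocytes (adjusted p = 2.0e-06) and by 0.80 ± 0.26 between TAM and granulocytes (0.016). For Slc2a1, the glucose transporter, the differences were 1.20 ± 0.25 (0.00018) and 1.36 ± 0.25 (6.2e-06). Vegfa differed by 1.96 ± 0.38 (4.8e-05) and 1.57 ± 0.39 (0.0013), and Egln3 by 1.74 ± 0.33 (4.8e-05) and 1.38 ± 0.34 (0.00098). In all of these the interval lay above 0 in both pairs. Arnt and Ldha, without a call in TAM, passed for TAM against granulocytes, by 0.98 ± 0.25 (0.0012) and 0.65 ± 0.21 (0.018). Ndrg1 and Vhl passed for TAM against monocytes, by 1.04 ± 0.28 (0.0056) and 0.57 ± 0.19 (0.037).

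Several glycolytic enzymes did not pass in either pair. Their intervals rest on the same approximate standard errors and are given as a description. Gapdh had a difference of 0.25 between TAM and monocytes (95% interval -0.12 to 0.62) and of 0.07 between TAM and granulocytes (-0.30 to 0.45). For Hk3, a hexokinase of myeloid cells, they were 0.16 (-0.31 to 0.62) and 0.15 (-0.32 to 0.61). Pkm passed in both pairs, with 0.52 (0.19 to 0.85) and 0.49 (0.16 to 0.83), although it was called in no single subset. Between monocytes and granulocytes the smallest adjusted p belonged to Ndrg1, with -0.93 (-1.53 to -0.33, adjusted p = 0.091).

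Other genes of the pathway, from lists that hold no member, were mixed in direction. Of 97 tested in TAM 19 were higher and 10 lower, of 92 in monocytes 4 and 6, and of 92 in granulocytes 8 and 13. Of all tested genes, 13.9% were higher and 12.5% lower in TAM, 4.13% and 1.77% in monocytes, and 7.32% and 9.9% in granulocytes. Of abundant genes, the shares were 31.2% and 14.3%, 6.06% and 2.93%, and 12.8% and 13.5%. The counts of single lists below are to be read beside these shares.

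Of the other HIF targets, 11 of 32 (34.4%) were higher and 2 lower in TAM. The share higher is near the 31.2% of abundant genes. Cxcr4, a chemokine receptor, had 2.05 in TAM (DESeq2 adjusted p = 2.1e-13) beside -0.38 and -0.21 in monocytes and granulocytes in the authors' deposited tables. Pnrc1, a nuclear receptor coactivator, had 1.12 in TAM (4.7e-10) and -0.53 in granulocytes (0.018), and Hilpda, a lipid droplet protein, 1.33 (2.3e-05) and -0.82 (0.033), by the DESeq2 test in the authors' deposited tables. Arg1, arginase, was higher in all 3, at 0.88, 0.62 and 1.28 in TAM, monocytes and granulocytes (DESeq2 adjusted p = 3.9e-05, 0.026 and 3.0e-08), in the authors' deposited tables. Tfrc, the transferrin receptor, and Plod2, a collagen lysyl hydroxylase, were the 2 lower in TAM, at -1.25 and -1.40 (DESeq2 adjusted p = 0.0017 and 0.024), in the authors' deposited table. In monocytes 2 of 30 were higher, Arg1 and Plod1, another lysyl hydroxylase (0.42, adjusted p = 0.043), and 3 lower, among them Jmjd6 at -0.72 (0.0092) and Hmox1, heme oxygenase 1, at -1.16 (0.010), by the DESeq2 test in the authors' deposited table. In granulocytes 4 of 30 were higher and 6 lower. The higher ones included Arg1 and Rassf4, the latter at 0.95 (0.00077), and the lower ones Plod2 at -1.97 (0.0029), by the DESeq2 test in the authors' deposited table.

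Among other regulators of HIF, 5 of 14 (35.7%) were higher and 2 (14.3%) lower in TAM, near the 31.2% and 14.3% of abundant genes. Os9 had 0.48 (DESeq2 adjusted p = 9.0e-05), the coactivator Crebbp 0.64 (0.00012) and Cited2, which competes with HIF for that coactivator, 0.82 (0.00036) in the authors' deposited table. Rack1, which can bring HIF-1α to degradation without oxygen sensing, was lower in TAM at -0.97 (2.7e-10) and in granulocytes at -0.42 (0.036) by the DESeq2 test in the authors' deposited tables. Siah2, a ubiquitin ligase of the prolyl hydroxylases, was the only 1 of 13 called in monocytes, at -0.59 (DESeq2 adjusted p = 0.00060) in the authors' deposited table.

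Of 20 other glycolysis and hexose genes in TAM, 1 was higher and 2 lower. Slc2a9, a urate and hexose transporter, was higher in all 3 subsets, at 1.22, 1.01 and 2.60 in TAM, monocytes and granulocytes (DESeq2 adjusted p = 1.0e-04, 0.011 and 1.7e-12), in the authors' deposited tables. Eno3, the muscle enolase, was lower in TAM at -1.26 (0.00051) and in granulocytes at -1.50 (0.00030), and Galk1, galactokinase, in TAM at -0.61 (0.0028), by the DESeq2 test in the authors' deposited tables. In granulocytes 2 of 18 were higher, the second being Slc2a8 (GLUT8) at 1.30 (DESeq2 adjusted p = 9.0e-06), and 2 lower, the second being Pgm2, a phosphoglucomutase, at -0.61 (0.036), in the authors' deposited table.

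A list around pyruvate dehydrogenase, which holds its subunits, its kinases and phosphatases, pyruvate carriers and neighbouring enzymes, gave 0 higher and 3 lower of 15 in TAM. These were Pck2, mitochondrial PEP carboxykinase, at -1.12 (DESeq2 adjusted p = 0.00048), Pdhb, a subunit of pyruvate dehydrogenase, at -0.35 (0.0062), and Me1, malic enzyme, at -1.62 (0.013), in the authors' deposited table. In granulocytes the kinases of pyruvate dehydrogenase Pdk3 and Pdk2 were higher, at 0.62 (6.6e-05) and 1.00 (0.027), and the phosphatase Pdp2 and Me1 lower, at -0.88 (0.030) and -1.56 (0.036), by the DESeq2 test in the authors' deposited table. In monocytes 1 of 15 passed, Gpd1 at 1.94 (DESeq2 adjusted p = 0.049), in the authors' deposited table.

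Among 16 genes of the pentose phosphate path and of glycogen, 2 were higher and 1 lower in TAM. Pygl, which frees glucose from glycogen, had 1.35 (DESeq2 adjusted p = 2.3e-07), H6pd 0.70 (0.00081) and Tkt, transketolase, -0.55 (0.0021) in the authors' deposited table. In monocytes Ugp2 and Ppp1r3b, both of glycogen synthesis, were lower at -0.32 (0.0059) and -0.87 (0.037), and in granulocytes Ppp1r3b and Ppp1r3d, at -1.23 (0.00047) and -0.78 (0.0013), by the DESeq2 test in the authors' deposited tables.

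Markers of other cells were also called, and in such bulk libraries fewer cells of a type and less RNA per cell cannot be told apart. Of all tested genes, 13.9% were higher and 12.5% lower in TAM, 4.13% and 1.77% in monocytes, and 7.32% and 9.9% in granulocytes. Of abundant genes, 31.2% were higher in TAM. Calls of 1 or 2 markers in a short list can lie near these shares. In TAM, 13 of 16 neutrophil markers, 7 of 12 classical monocyte markers and 4 of 5 tested eosinophil markers were higher and none of them lower, while 4 of 11 dendritic cell markers and 3 of 11 fibroblast markers were lower. Chil3 and Hp, of the monocyte list, had log2 fold changes of 3.22 each in TAM in the authors' deposited table. Of the 13 neutrophil markers called higher, 4 had a negative log2 fold change beside their positive Wald statistic in the authors' deposited table, which were S100a8 (-0.05), S100a9 (-1.24), Camp (-0.77) and Ngp (-0.59), so their direction is uncertain. Of epithelial or tumour cell markers 2 of 13 (15.4%) were higher in TAM, a share near the 13.9% of all genes, and 0 were called in the other subsets. Their Wald statistic was positive for 13 of 13 in TAM, 11 of 13 in monocytes and 13 of 13 in granulocytes. In monocytes 9 of 14 macrophage and 8 of 16 neutrophil markers were higher and none of them lower, and 2 of 5 eosinophil markers. In granulocytes 6 of 14 macrophage markers were higher and 1 lower, 3 of 12 monocyte markers higher, 1 of 16 neutrophil markers higher and 1 lower, and 3 of 10 fibroblast and 2 of 12 T and NK cell markers lower. Of endothelial markers 2 of 6 were higher in TAM and 1 of 6 lower in granulocytes, B and plasma cell markers gave 2 higher and 1 lower of 9 in TAM, 1 and 1 of 8 in monocytes and 1 and 0 of 9 in granulocytes, and erythroid markers gave no call. From which cell type the reads of a member came is not known from these values. Group levels of these markers are not in the values analysed here, and their part in the results was not tested.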

How the data were processed

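RNA of 3 sorted subsets of 15 numbered tumours was sequenced as 41 libraries. Per the submitters' processing notes, R 4.0.2, DESeq2 1.28.1, STAR 2.7.6a and fastp 0.20.1 were used with build mm39 (GRCm39). How reads were counted, and with which annotation, is not given in the sources used here. Per the labels' protocols, libraries were made with Nextera XT from little cDNA, so weakly expressed genes may vary more, and this kit keeps no strand.

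The authors deposited 3 tables. The mean normalised count is a signal averaged by the authors over libraries. The authors' log2 fold changes were read as shrunken, since a few contradict the sign of a large Wald statistic, which is a score deposited by the authors. This reading was not checked. A smaller fold size alone does not reverse a sign, as for S100a9 in TAM, with -1.24 at a Wald statistic of 4.155. Fold and score may thus not come from the same estimate, and their ratio is then not a standard error. The authors' p-values equal the normal p of that score. Adjusted p-values are absent for rarer genes, and the lowest mean with one was 2.50 in TAM, 6.33 in monocytes and 3.96 in granulocytes, leaving 16851, 14506 and 15679 genes.

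The 44 members, the 5 pathway lists (107 genes) and 11 marker lists were chosen with earlier results of these data known. Members called in at least 1 comparison were named with values, up to 4 called genes of each pathway list and comparison with the smallest p were named, except 1 that is not reported here. Tfrc and Plod2 in TAM, the markers Chil3, Hp, S100a8, S100a9, Camp and Ngp, and the genes singled out in the difference test were picked after their values were seen. The planned test between subsets took opposite effects only and called no member. The approximate z test of differences, the background of genes whose mean count reaches 1000 and the centring on these genes were added after the tables were seen. The z test took genes whose mean count reaches 50, absolute folds of at least 0.01 and both fold-to-Wald ratios within 1.5 times of each other. It left out Epas1, Hif1an, Ankrd37 and Slc2a3 for TAM and monocytes, Epas1, Egln1 and Ankrd37 for TAM and granulocytes, and Epas1, Egln1, Hif1an and Slc2a3 for monocytes and granulocytes. Both tests were tried on simulated data in which a gene had the same standard error in both subsets and the subsets were independent. Such data cannot show how unlike shrinkage or shared tumours affect the test of differences.

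Alternatives were thresholds of 0.01 and 0.1, adjustment over all genes that have a p-value, a log2 fold change of 1 or more in size, a mean count of at least 50, direction from the fold, and Wald statistics centred or divided by their robust SD. Shared 50-base stretches and overlapping exons came from GENCODE M21, which is of the earlier build GRCm38, so genes are given no coordinates. Promoter windows came from RefSeq (GRCm38.p6). A stretch was chosen around a core only if no short run of the core and its flanks occurred in a GENCODE transcript of the gene. This condition was added after a first choice fell in an exon. All cores in a chosen stretch were then marked, so the ACGTG of Slc2a1 was marked without meeting the condition itself. The software was scipy 1.17.1, numpy 2.4.6 and pandas 2.3.3 in Python 3.11.15, with matplotlib 3.10.9.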

Additional observations from a re-analysis of the deposited data

Results flagged for a closer look

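The effect of irradiation differed between 2 subsets, by the approximate z test of the difference of log2 fold changes with adjustment over all genes, for members of the hypoxia and glycolysis genes in 2 pairs. The test was added after the planned one had called no member, and in each case given here the effect was higher in TAM. No cause was weighed.

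Against inflammatory monocytes, the adjusted p among HIF factors and oxygen sensors was 2.0e-06 for Hif1a, 0.037 for Vhl, 0.0061 for Egln1 and 4.8e-05 for Egln3. Among HIF targets it was 4.8e-05 for Vegfa, 0.031 for Bnip3l, 0.0056 for Ndrg1, 0.028 for Ero1l, 0.0017 for Ddit4, 0.024 for Kdm3a and 2.0e-06 for Mxi1. Among transporters and enzymes it was 0.00018 for Slc2a1, 0.0029 for Slc16a3, 0.00081 for Hk1, 0.025 for Hk2, 0.012 for Pfkp and 0.027 for Pkm.

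Against granulocytes, the adjusted p was 1.3e-11 for Hif1a, 0.0012 for Arnt and 0.00098 for Egln3. HIF targets had 0.0013 for Vegfa, 0.023 for Bnip3, 0.0017 for Bnip3l, 0.038 for Ero1l, 0.026 for P4ha1, 0.00014 for Ddit4, 0.00039 for Kdm3a and 0.016 for Mxi1. Transporters had 6.2e-06 for Slc2a1, 0.0015 for Slc2a3 and 4.2e-06 for Slc16a3. Enzymes had 0.030 for Hk1, 7.8e-05 for Hk2, 0.0029 for Pfkl, 0.0050 for Pfkp, 0.035 for Pfkfb3, 0.029 for Pkm and 0.018 for Ldha.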

How the results depend on the processing

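No member that was called changed direction under any alternative tried, but counts of calls moved. Direction was fixed in advance under nearly all of them. Most kept the sign of the Wald statistic by construction, and the centrings shifted it by less than the size of any called member's statistic. Only the setting that took direction from the fold could have reversed a call. At an adjusted p under 0.01, members called higher in TAM went from 17 to 9 and lower in granulocytes from 10 to 6. With a log2 fold change of 1 or more in size in the authors' deposited tables, 5 members were called in TAM (main count 17), 1 in monocytes (8) and 1 in granulocytes (10). With Wald statistics divided by their robust SD, which assumes that most genes do not change, 1 remained in TAM (Hif1a), 0 in monocytes and 0 in granulocytes. Centred on abundant genes, TAM had 5 higher and 3 lower, in place of 17 and 0. At an adjusted p under 0.1, 1 member was higher in granulocytes, in place of 0.

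For the other pathway genes called higher and lower in TAM (19 and 10), the counts were 8 and 5 with the minimum fold, 1 and 0 with the robust SD, and 29 lower with centring on abundant genes. In monocytes (4 higher, 6 lower) they were 0 and 3 at 0.01, 9 and 10 at 0.1, 2 and 1 with the minimum fold, and 0 and 0 with the robust SD; adjustment over every gene gave 1 higher and centring on all genes 2 higher. In granulocytes (8 and 13) they were 5 and 4 with the minimum fold and 1 and 0 with the robust SD, and lower genes numbered 4 at 0.01 and 7 adjusted over every gene. The added test of differences gave 10 members at 0.01 and 0 with the robust SD for TAM against monocytes (17), 13 and 1 for TAM against granulocytes (21), and 1 lower member at 0.1 for monocytes against granulocytes (0). Beyond the fewer calls that a stricter criterion allows by construction, the cause was not tested.

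No paired analysis was possible because no tumour number is shared by untreated and irradiated libraries and the tables hold no values of single libraries, for which reason leaving out a library could not be run either. Depth per library is unknown.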
